A study of Bos taurus with 28 samples.

Results

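The miR-99 and miR-125 paralogs in milk extracellular vesicles (EVs) are described here across cows, milking sessions, days and somatic cell counts (SCC). The members are bta-miR-99a-5p, bta-miR-99b, bta-miR-125a and bta-miR-125b, chosen by name, and they make up 4 of the 132 miRNAs in the deposited table. The study sequenced small RNA from EVs of skimmed raw milk of 4 healthy dairy cows (Bos taurus), each milked in the morning and in the evening, to ask whether the miRNA cargo changes with the time of day. There were 28 libraries, 14 Morning and 14 Evening, with 6 from Cow 1, 8 from Cow 2, 6 from Cow 3 and 8 from Cow 4. All cows belonged to 1 experimental herd, with no treatment named, and their age and breed are not given in the sources used here. Collection ran over days 1 to 4. Cow 1 has no library of day 2 and Cow 3 has none of day 3. Each cow is 1 animal, so a test among cows measures differences between these animals against the spread of their milkings.

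A miRNA is a short RNA that guides the Argonaute protein to messenger RNAs, mainly through its seed near the 5′ end, and lowers their translation or stability. miR-99a and miR-99b share their seed with miR-100, and repression of the growth kinase mTOR by this family is known from human and mouse cells. miR-125a and miR-125b are the mammalian relatives of lin-4, the developmental timing miRNA of the worm Caenorhabditis elegans, and both families lie beside let-7 genes in mammalian genomes. In the RefSeq annotation of the cow (assembly ARS-UCD2.0, used for gene order only), MIR99B, MIRLET7E and MIR125A are neighbours on 1 chromosome. MIR99A, MIRLET7C and MIR125B-2 form another group, and MIR100, MIRLET7A-2 and MIR125B-1 a further one, each with 0 other annotated genes starting in between. bta-miR-125b therefore has 2 genes, and the reads of their common mature product cannot be told apart in its row. The paralogs are close in sequence, so their split also rests on how the authors matched reads to mature miRNAs. Mature sequences were not used here, and bta-miR-100 has no row among the 132 miRNAs.

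The values are log2 CPM, the base 2 logarithm of the reads of a miRNA relative to the library size (as CPM), after scaling by the authors. The reads behind them were worked back from the table. Summed over the 132 miRNAs they came to 101968 to 325211 per library (median 158620). All 4 miRNAs had reads in all 28 libraries. bta-miR-125a was the most abundant with 13.24 ± 0.38 log2 CPM (SD, n = 28) and 721 to 3328 reads per library, which put it at rank 20 of the 132 mean levels. bta-miR-99a-5p followed with 12.51 ± 0.25 (rank 24) and 533 to 2585 reads. bta-miR-125b had 11.69 ± 0.22 (rank 35) and 301 to 1378 reads, and bta-miR-99b was the lowest with 10.08 ± 0.50 (rank 55) and 71 to 404 reads. Within the miR-99 pair the a form was thus the more abundant, and within the miR-125 pair the a form as well, in every library, with ratios of 2.40 to 10.4 for bta-miR-99a-5p to bta-miR-99b and of 1.38 to 5.16 for bta-miR-125a to bta-miR-125b. Together the 4 took between 1.58% and 3.12% of the reads of the 132 miRNAs in a library (median 1.94%). Intervals and limits from reads cover counting error only. The error expected from counting alone was 0.037 log2 units for bta-miR-125a, 0.049 for bta-miR-99a-5p, 0.064 for bta-miR-125b and 0.115 for bta-miR-99b, below the SD over the libraries in each case.

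The first comparison asked whether the cows differed. Cow 3 had the most bta-miR-99a-5p and the least bta-miR-99b and bta-miR-125a, so it stood at opposite ends for the 2 forms of miR-99. The limma F test over the 4 cows passed the threshold (adjusted p below 0.05, Benjamini-Hochberg over the 132 miRNAs) for 3 of the 4 members, bta-miR-99b (adjusted p = 0.0208), bta-miR-99a-5p (0.0281) and bta-miR-125a (0.0332), and not for bta-miR-125b (0.391). Among all 132 miRNAs 47% passed the same test, which is the background for the count of members. The calls did not hold when the 2 milkings of a cow and day were treated as a replicate block. The adjusted p was then 0.0513, 0.0764 and 0.0764, and 0 of the 4 members passed, as was also the case with the milkings of each day averaged (0.145, 0.211 and 0.195). With the library medians set equal, bta-miR-99a-5p (0.00107) and bta-miR-125b (0.0485) passed and bta-miR-99b (0.149) and bta-miR-125a (0.202) did not. bta-miR-99b also missed the threshold with quantile normalization (0.0943), and both missed it with each library scaled to its own read total (0.0599 and 0.158). Leaving out the libraries of day 3 ended the calls of bta-miR-99a-5p (0.0845) and bta-miR-125a (0.0680), and single libraries of Cow 3 decided them too. bta-miR-99a-5p missed the threshold without the morning (0.0747) or the evening (0.0714) of day 1 or the evening of day 4 (0.0501) of Cow 3. bta-miR-125a missed it without the evening of day 1 (0.0967) or the morning of day 4 (0.143) of Cow 3 and without the morning (0.0573) or the evening (0.0588) of day 3 of Cow 1.

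**Figure D1:**
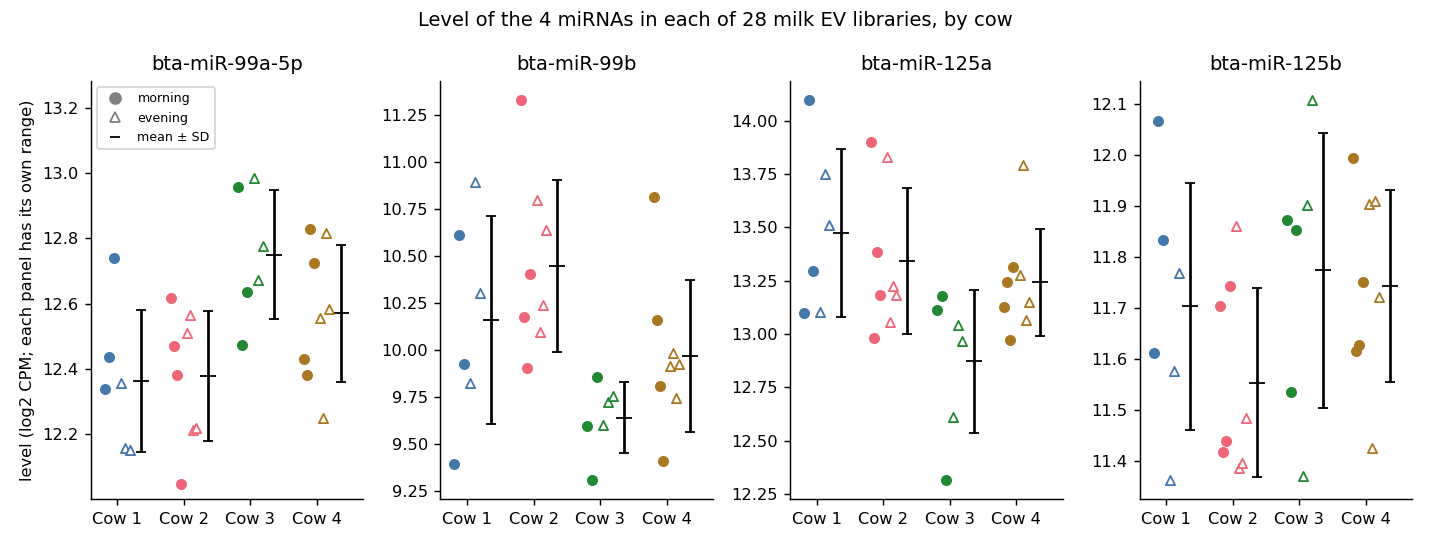
Level of each miRNA (y axis, log2 CPM, each panel with its own range) in the 28 libraries, by cow (x axis). Filled circles are morning and open triangles evening libraries, and the black bars are the mean ± SD of a cow (n = 6 or 8). The 6 libraries of Cow 3 end at 9.86 for bta-miR-99b, just under the lowest of Cow 2 at 9.90, while cows overlap in every other pair and panel.

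bta-miR-99a-5p had 12.75 ± 0.20 log2 CPM in Cow 3 (lowest 12.47, median 12.73, highest 12.99, n = 6). Cow 4 followed with 12.57 ± 0.21 (12.25, 12.57 and 12.83, n = 8), then Cow 2 with 12.38 ± 0.20 (12.05, 12.43 and 12.62, n = 8) and Cow 1 with 12.36 ± 0.22 (12.15, 12.35 and 12.74, n = 6). The ranges of all cows overlapped, and the highest library of Cow 1, the morning of day 4, reached the median of Cow 3. Cow 3 was 0.39 ± 0.13 log2 units (SE) above Cow 1 (1.31-fold, adjusted p = 0.0290) and 0.37 ± 0.12 above Cow 2 (1.29-fold, adjusted p = 0.0165). With the replicate block the difference to Cow 1 had an adjusted p of 0.0664 and was no longer called. It was also lost without the evening of day 3 (0.0603) or day 4 (0.0687) of Cow 1 and without the morning (0.0746) or the evening (0.0583) of day 1 of Cow 3, and the difference to Cow 2 had an adjusted p of 0.05 without that morning and of 0.0536 with own read totals. Against Cow 4 the difference was 0.18, with a 95% interval of -0.07 to 0.43 and an adjusted p of 0.273.

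bta-miR-99b ran the other way. Its level was 9.64 ± 0.19 in Cow 3 (lowest 9.31, median 9.66, highest 9.86, n = 6). Cow 4 had 9.97 ± 0.40 (9.41, 9.92 and 10.81, n = 8), Cow 1 had 10.16 ± 0.55 (9.40, 10.11 and 10.89, n = 6) and Cow 2 had 10.45 ± 0.46 (9.90, 10.32 and 11.33, n = 8). All libraries of Cow 3 lay below all libraries of Cow 2, and the spread in Cow 3 was the smallest among the cows. Cow 3 was lower than Cow 2 by 0.81 ± 0.22 log2 units (SE, 1.75-fold, limma adjusted p = 0.00447). This was the only cow difference of these miRNAs still called with the replicate block and also with the milkings of a day averaged. With morning libraries only (limma adjusted p = 0.138) or evening libraries only (0.059) it was not called. Against Cow 1 the difference was -0.52 (95% interval -0.998 to -0.04, adjusted p = 0.110, and 0.0369 without the morning of day 1 of Cow 1) and against Cow 4 it was -0.33 (-0.78 to 0.12, adjusted p = 0.273).

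bta-miR-125a was at 12.87 ± 0.34 in Cow 3 (lowest 12.32, median 13.01, highest 13.18, n = 6). Cow 4 had 13.24 ± 0.25 (12.97, 13.20 and 13.79, n = 8), Cow 2 had 13.34 ± 0.34 (12.98, 13.21 and 13.90, n = 8) and Cow 1 had 13.48 ± 0.39 (13.10, 13.40 and 14.10, n = 6). Libraries with low values in Cow 3 came from the morning of day 4 (12.32) and the evening of day 1 (12.61), and its other 4 libraries lay between 12.97 and 13.18. Cow 3 was lower than Cow 1 by 0.60 ± 0.18 (SE, 1.52-fold, adjusted p = 0.0161) and lower than Cow 2 by 0.47 ± 0.17 (1.39-fold, adjusted p = 0.0339). The call against Cow 2 was lost with the replicate block (adjusted p = 0.0627), without the morning (0.0797) or the evening (0.0795) of day 1 of Cow 2 and without the evening of day 1 of Cow 3 (0.0753). Without the 1 library of the morning of day 4 of Cow 3 neither call held (adjusted p = 0.0567 and 0.114), and the difference to Cow 1 also missed the threshold without the morning of day 3 of Cow 1 (0.0580). With the library medians set equal, which moved the median difference of all miRNAs to Cow 2 from -0.02 to 0.18, bta-miR-125a differed from Cow 2 by -0.27 (adjusted p = 0.244) and from Cow 1 by -0.43 (0.0928). With each library scaled to its own read total the differences were -0.35 (0.107) and -0.33 (0.181). Against Cow 4 the difference was -0.37 (95% interval -0.72 to -0.02, adjusted p = 0.109), and it was called with the read total as a covariate (-0.49, adjusted p = 0.0448).

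bta-miR-125b differed least among the animals. Cow 3 had 11.77 ± 0.27 (n = 6), Cow 4 had 11.74 ± 0.19 (n = 8), Cow 1 had 11.70 ± 0.24 (n = 6) and Cow 2 had 11.55 ± 0.19 (n = 8). The ranges overlapped throughout, from 11.36 to 12.11 over all libraries. The largest difference that Cow 3 showed was 0.22 to Cow 2, with a 95% interval of -0.04 to 0.48 and an adjusted p of 0.195. With the library medians set equal it was 0.42 (adjusted p = 0.0271).

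**Figure D2:**
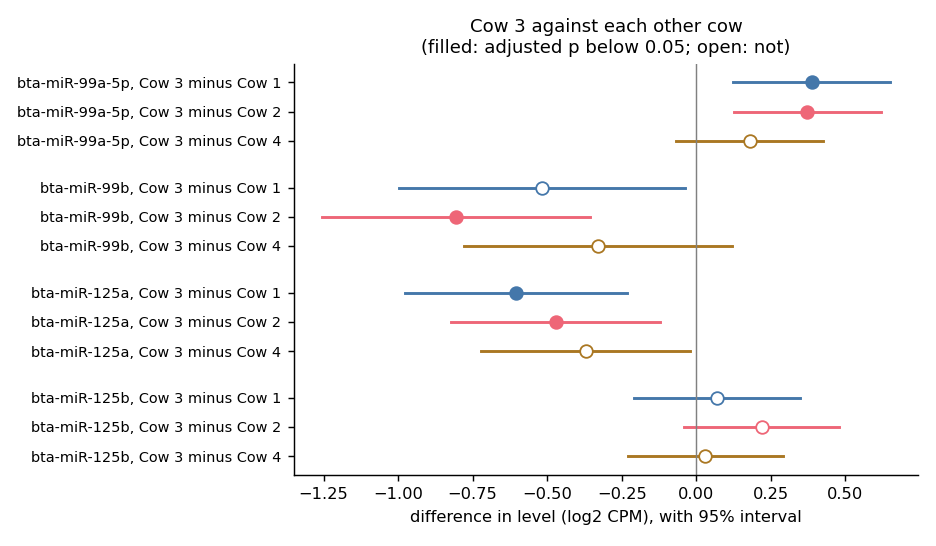
Difference in level (x axis, log2 CPM) between Cow 3 and each other cow for the 4 miRNAs, with points for the estimate and lines for the 95% interval of the limma fit. Filled points have an adjusted p below 0.05, and 5 of the 12 differences do, with bta-miR-99a-5p to the right of 0 and bta-miR-99b and bta-miR-125a to the left.

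Against Cow 1 there were calls for 2 of the 4 members (22.7% of the 132 miRNAs), and against Cow 2 for 3 of the 4 (30.3%). Against Cow 4 there was a call for 0 of the 4 (25.8%). These 3 comparisons share the libraries of Cow 3. Over all miRNAs 13 were called higher and 17 lower in Cow 3 than in Cow 1, 22 and 18 than in Cow 2 and 15 and 19 than in Cow 4. With library medians set equal the first 2 splits were 19 and 7 and 33 and 14, and with each library scaled to its own read total the splits were 20 and 7, 20 and 12 and 28 and 11. The median difference of the 4 members was -0.22 to Cow 1, -0.13 to Cow 2 and -0.15 to Cow 4, beside -0.06, -0.02 and -0.01 over all miRNAs. Among the other cows 0 of 12 differences of the members passed, with adjusted p from 0.104 to 0.932 (1 of 12 passed without the morning of day 1 of Cow 4), where 9.85% of all miRNAs passed for Cow 2 against Cow 1, 5.30% for Cow 4 against Cow 1 and 18.9% for Cow 4 against Cow 2. The order of Cow 1, Cow 2 and Cow 4 is therefore not resolved for any member, nor is the step from Cow 4 to Cow 3 in this fit.

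Some markers of cell types also differed in Cow 3. The summed levels for red blood cells and mammary epithelium stayed inside the range of the other cows. Of 9 miRNAs listed for immune cells 5 had rows, and their summed level was 3294 to 7585 CPM in Cow 3 against 1327 to 2880 elsewhere. The sum was set by bta-miR-181a, and the list was split. bta-miR-181a and bta-miR-181b were higher in Cow 3 than in Cow 1 (1.72 and 1.23 log2 units). bta-miR-342 (-1.13, limma adjusted p = 0.0071) and bta-miR-155 (-1.25, adjusted p = 0.030) were lower, and the median of the 5 was -0.38. Against Cow 2 neither of these was called lower (adjusted p = 0.0684 and 0.741), and the median was 0.28. Against Cow 4 bta-miR-342 was lower (0.0306) and bta-miR-155 was not called (0.109), with a median of -0.18. bta-miR-181a and bta-miR-181b were called higher against both. bta-miR-155 had 0 reads in 1 of the 6 libraries of Cow 3 and 1 of the 8 of Cow 2. Of 8 listed for stroma 2 had rows, and their sum was 11.4 to 84.7 CPM in Cow 3 and 34.2 to 359 in the others, with bta-miR-10b at 0 reads in 5 of the 6 libraries of Cow 3, 4 of the 8 of Cow 2 and 1 of the 8 of Cow 4. The 2 of 5 red blood cell miRNAs with rows summed to 1001 to 1651 CPM in Cow 3 and to 373 to 1673 elsewhere. All 6 miRNAs listed for mammary epithelium were present, at 88796 to 102799 CPM in Cow 3 and 68712 to 109081 elsewhere. Their part in the differences of the members was not tested. In EVs, fewer vesicles of a source and less of a miRNA per vesicle cannot be told apart.

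The second comparison, of the 2 milking sessions, was the main question of the study. No difference between evening and morning was detected for any of the 4 miRNAs. bta-miR-99a-5p had 12.53 ± 0.23 log2 CPM in the morning (lowest 12.05, median 12.47, highest 12.96) and 12.49 ± 0.27 in the evening (12.15, 12.53 and 12.99), with n = 14 each. bta-miR-99b had 10.05 ± 0.58 (9.31, 9.91 and 11.33) and 10.10 ± 0.42 (9.60, 9.96 and 10.89). bta-miR-125a had 13.23 ± 0.42 (12.32, 13.18 and 14.10) and 13.26 ± 0.35 (12.61, 13.17 and 13.83), and bta-miR-125b had 11.72 ± 0.19 (11.42, 11.72 and 12.07) and 11.66 ± 0.25 (11.36, 11.65 and 12.11). The sessions overlapped over almost their whole ranges.

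With cow as a covariate, the evening minus morning difference was -0.05 for bta-miR-99a-5p (95% interval -0.22 to 0.13), 0.05 for bta-miR-99b (-0.27 to 0.37), 0.03 for bta-miR-125a (-0.22 to 0.28) and -0.06 for bta-miR-125b (-0.25 to 0.12). The adjusted p was 0.996 for each, and 0% of the 132 miRNAs passed in this limma fit (2 had an unadjusted p below 0.05). Among the 14 cow and day pairs the evening value was the higher in 7 for bta-miR-99a-5p, in 8 for bta-miR-99b, in 7 for bta-miR-125a and in 4 for bta-miR-125b.

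**Figure D3:**
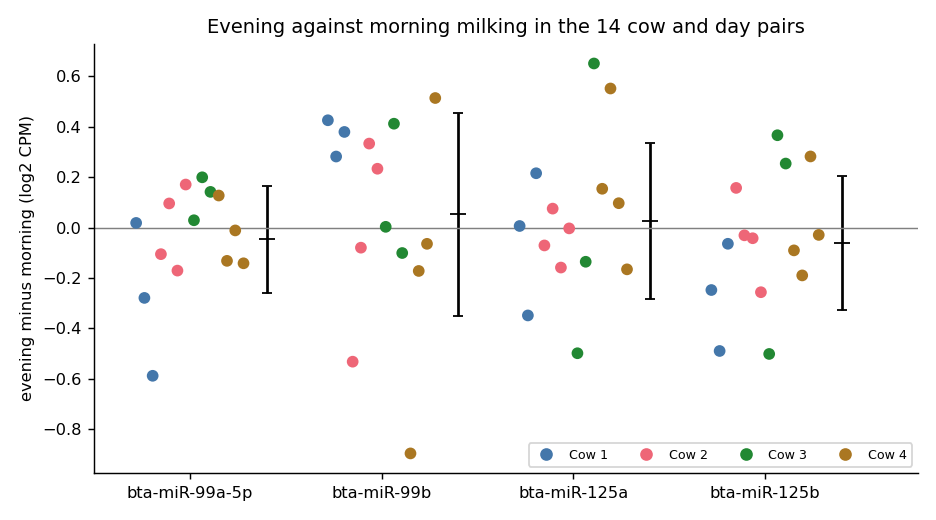
Evening minus morning difference (y axis, log2 CPM) in each of the 14 pairs of libraries of 1 cow and day, coloured by cow, with the mean ± SD of the 14 pairs as a black bar. The points of each miRNA lie on both sides of 0, and the widest gap is that of bta-miR-99b on day 1 of Cow 4 at -0.90.

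Single pairs did differ. For bta-miR-99b Cow 4 fell from 10.81 in the morning of day 1 to 9.91 in the evening and rose from 9.41 to 9.93 on day 4. For bta-miR-125a Cow 3 went from 13.11 to 12.61 on day 1 and from 12.32 to 12.97 on day 4. Cow 1 had a higher bta-miR-99b in the evening on 3 of 3 days (mean 0.36) and a lower bta-miR-125b on 3 of 3 days (mean -0.27), and in the evening Cow 3 had a higher bta-miR-99a-5p on 3 of 3 days (mean 0.12). Every other cow and miRNA had pairs of both signs. The limma F test of the interaction of cow and session passed for 0 of the 4 members (adjusted p = 0.969 for each). It passed for 0% of all miRNAs (1 with an unadjusted p below 0.05). A different response of 1 animal was thus not detected, and the power to detect one at this number of milkings was not tested.

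Days were compared next. The F test over collection days 1 to 4, beside cow and session, passed for 0% of the 132 miRNAs (13 had an unadjusted p below 0.05), and the adjusted p of the members was 0.758 for bta-miR-125b, 0.861 for bta-miR-99a-5p, 0.898 for bta-miR-125a and 0.944 for bta-miR-99b. A common course over the days was thus not detected. Yet the days within a cow held a larger share of the sum of squares of each member than the milkings of a day. Days within a cow held 51.5% of the sum of squares of bta-miR-125a and 48.5% of that of bta-miR-99b. For bta-miR-125b it was 48.4% and for bta-miR-99a-5p 42.7%, where the median miRNA had 37.7%. Cows held 32.1%, 35.5%, 15.7% and 38.8% in the same order (median miRNA 26.8%). The 2 milkings of a day held 16.4%, 16.1%, 35.9% and 18.6% (median miRNA 30.02%). These shares also depend on the numbers of cows, days and milkings. Divided by degrees of freedom, the root mean square between cows was 0.641, 0.888, 0.267 and 0.464 log2 units in the same order. Between days within cows it was 0.445, 0.568, 0.256 and 0.266, and between milkings 0.212, 0.277, 0.187 and 0.149. This measure was larger between cows than between days for each member, narrowly so for bta-miR-125b. The values for cows also hold the spread between days and milkings, and those for days the spread between milkings. They therefore do not rank cows against days, or days against milkings.

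In a limma F test of the days within cows, added after these shares had been seen, 2 of the 4 members passed, bta-miR-125a (adjusted p = 0.0411) and bta-miR-99b (0.0439), beside 11.4% of all miRNAs. bta-miR-99a-5p (0.185) and bta-miR-125b (0.356) did not. The calls are near the threshold and 7 alternatives ended 1 or both of them, among them leaving out Cow 1 (adjusted p = 0.128 and 0.152), Cow 2 (0.158 and 0.152) or day 3 (0.12 and 0.195). Without a variance trend in the fit 0 of the 132 miRNAs passed.

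**Figure D4:**
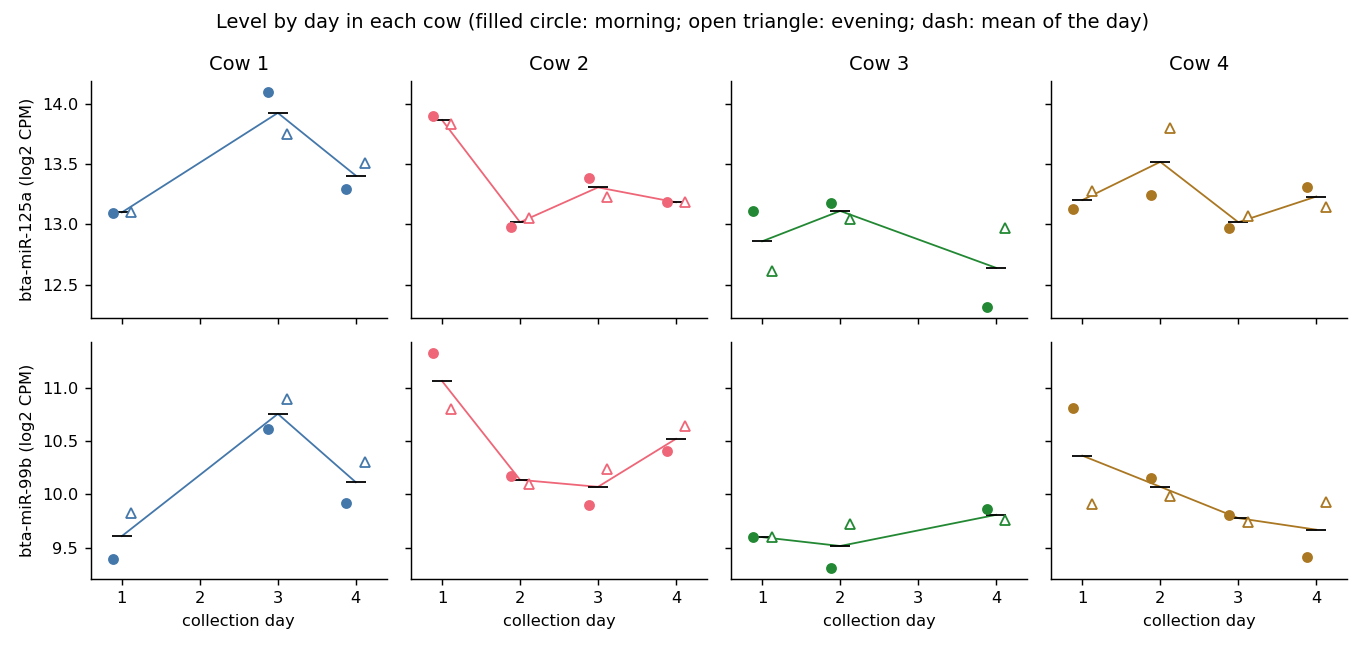
Level of bta-miR-125a (upper row) and bta-miR-99b (lower row) in log2 CPM (y axis) by collection day (x axis), with 1 column of panels per cow. Filled circles are morning and open triangles evening libraries, dashes are the mean of a day and lines join the days, and both miRNAs peak on day 3 in Cow 1 and on day 1 in Cow 2.

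In Cow 1 the mean of the 2 milkings for bta-miR-125a was 13.10 on day 1, 13.92 on day 3 and 13.40 on day 4, and that for bta-miR-99b was 9.61, 10.75 and 10.11. In Cow 2 bta-miR-125a began at 13.86 on day 1 and was at 13.02, 13.31 and 13.18 on days 2, 3 and 4, and bta-miR-99b went from 11.06 to 10.14, 10.07 and 10.52. Both thus had their highest day in common in these cows. In Cow 3 they did not, with bta-miR-125a highest on day 2 (13.11) and bta-miR-99b on day 4 (9.81). In Cow 4 bta-miR-125a was highest on day 2 (13.52) and bta-miR-99b on day 1 (10.36). The day means of 1 cow spanned 0.47 to 0.85 log2 units for bta-miR-125a and 0.29 to 1.14 for bta-miR-99b. The spans were 0.15 to 0.51 for bta-miR-99a-5p and 0.33 to 0.43 for bta-miR-125b.

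SCC, the number of cells per mL of milk, is a routine sign of udder inflammation. It ran from 39000 to 297000 cells/mL for Cow 1 and from 36000 to 300000 for Cow 2. Cow 3 stayed between 28000 and 53000, and Cow 4 between 18000 and 58000. With cow as a covariate, the change in level per doubling of SCC was 0.05 for bta-miR-125a (95% interval -0.11 to 0.20), -0.04 for bta-miR-99a-5p (-0.15 to 0.07), -0.03 for bta-miR-125b (-0.14 to 0.08) and -0.0027 for bta-miR-99b (-0.20 to 0.20). The adjusted p was 0.808 to 0.999, so 0 of the 4 passed, beside 2.27% of all miRNAs in the same limma fit.

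The 2 milkings with the highest SCC gave different pictures. In the morning of day 3 of Cow 1, at 297000 cells/mL, bta-miR-125a was at 14.10 and bta-miR-125b at 12.07, each the highest value of that cow. There bta-miR-99a-5p was at 12.44 and bta-miR-99b at 10.61, inside the range of the other libraries of Cow 1. Only the evening of that day, at 190000 cells/mL, had more bta-miR-99b in Cow 1 (10.89), and bta-miR-125a was then at 13.75. In the evening of day 3 of Cow 2, at 300000 cells/mL, all 4 lay inside the range of the other libraries of that cow, at 13.23 for bta-miR-125a, 11.40 for bta-miR-125b, 12.21 for bta-miR-99a-5p and 10.24 for bta-miR-99b. The morning of day 3 of Cow 2, at 163000 cells/mL, had the lowest bta-miR-99b of that cow (9.90). These day 3 milkings of Cow 1 and Cow 2 had the highest SCC of all, so SCC and day cannot be told apart at the upper end. Without day 3 the slope of bta-miR-125a was -0.20.

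The last question was whether miRNAs from 1 cluster moved together. For the pair of MIR99B and MIR125A, the correlation over the 28 libraries with the mean of each cow removed was r = 0.46 (permutation p = 0.0244, adjusted p = 0.0772 over 6 pairs) and Spearman's rho gave 0.43 (permutation p = 0.0358). With the 2 libraries farthest from the median of bta-miR-99b left out r was 0.45. It was 0.26 without Cow 1 (adjusted p = 0.756) and 0.31 without Cow 2 (0.357), and 0.60 without Cow 3 (0.045). Within cows the relation was not uniform. Cow 1 had r = 0.87 (n = 6, exact permutation p = 0.0292) and Cow 2 had 0.76 (n = 8, exact permutation p = 0.0300), but Cow 3 had -0.62 (n = 6, exact p = 0.186) and Cow 4 had -0.06 (n = 8, exact p = 0.837), with an adjusted p of at least 0.240 for each cow. Over the 14 day means with cow means removed r was 0.70 (permutation p = 0.0407, adjusted p = 0.122), which did not pass. Their evening minus morning differences had r = -0.31 (permutation p = 0.280) and the same sign in 3 of the 14 pairs.

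**Figure D5:**
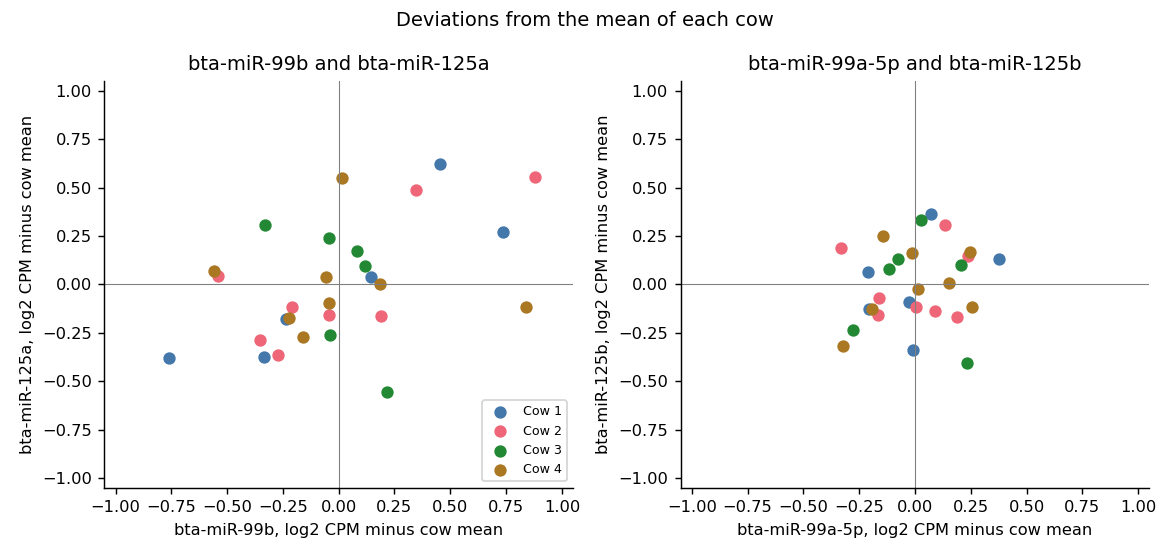
Deviation of a library from the mean of its cow in log2 CPM, for bta-miR-99b (x axis) and bta-miR-125a (y axis) on the left and for bta-miR-99a-5p (x axis) and bta-miR-125b (y axis) on the right, with 1 point per library coloured by cow. The left cloud rises with r = 0.46, mainly through Cow 1 and Cow 2, and the right cloud has r = 0.17.

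For bta-miR-99a-5p and bta-miR-125b, whose genes MIR99A and MIR125B-2 neighbour each other, r was 0.17 (permutation p = 0.417, adjusted p = 0.557) and the day means had r = 0.10. The row of bta-miR-125b also holds the product of the copy beside MIR100. bta-miR-99b and bta-miR-125b, which lie in different groups, were related about as strongly as the pair of MIR99B and MIR125A, with r = 0.43 (permutation p = 0.0257, adjusted p = 0.0772) and r = 0.73 over day means (adjusted p = 0.0670). With quantile normalization it was 0.10 (adjusted p = 0.855). Leaving out the evening of day 2 of Cow 4 brought both relations to an adjusted p of 0.0498 (r = 0.49 and 0.46), and leaving out the evening of day 3 of Cow 1 that of bta-miR-99b and bta-miR-125b to 0.0276 (r = 0.52). The seed pairs had r = 0.31 for bta-miR-125a and bta-miR-125b and r = -0.16 for bta-miR-99a-5p and bta-miR-99b, and bta-miR-99a-5p and bta-miR-125a had r = -0.11. Over all libraries 0 of the 6 pairs passed after adjustment with the deposited scaling. For comparison, the 8646 pairs of all 132 miRNAs had a median r of 0.00 with 5th and 95th percentiles of -0.45 and 0.48. When each library was scaled to its own read total instead, 4 of the 6 pairs passed, with r = 0.51 for bta-miR-99b and bta-miR-125a and 0.69 for bta-miR-99a-5p and bta-miR-125b.

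The let-7 miRNAs encoded between the members were related to them to different degrees. With cow means removed, let-7e had r = 0.45 with bta-miR-125a (rank 8 of its 131 partners, next to bta-miR-99b at rank 7) and 0.10 with bta-miR-99b (rank 42). let-7c had r = -0.27 with bta-miR-99a-5p (rank 116) and -0.31 with bta-miR-125b (rank 115). bta-let-7a-5p and bta-let-7a-3p had r = -0.14 and -0.10 with bta-miR-125b. Whether their reads came from MIRLET7A-2, in the group that holds the other copy of miR-125b, was not tested. Of the 9 miRNAs of the let-7 family, all with rows, 0 passed the test among cows, where 47% of all miRNAs did. The family also had 0 calls for sessions and days (0% of all miRNAs each) and for SCC (2.27%).

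By rank of likeness, other miRNAs stood nearer to each member than its cluster partner. With cow means removed over the 28 libraries, bta-miR-99b was nearest to bta-miR-182 (r = 0.82), bta-miR-151-3p (0.72) and bta-miR-2478 (0.71), with bta-miR-125a in place 6. bta-miR-125a was nearest to bta-let-7b (0.63), bta-miR-197 (0.59) and bta-miR-3596 (0.53), with bta-miR-99b in place 7. bta-miR-125b was nearest to bta-miR-30f (0.77), bta-miR-191 (0.67) and bta-miR-30c (0.56), and bta-miR-99a-5p to bta-miR-194 (0.61), bta-miR-101 (0.59) and bta-miR-425-5p (0.55). With the cows' levels left in, the leading partners were bta-miR-182 (0.80), bta-miR-183 (0.79) and bta-miR-151-3p (0.78) for bta-miR-99b, and bta-miR-342 (0.67), bta-let-7b (0.60) and bta-miR-885 (0.59) for bta-miR-125a. They were bta-miR-30c (0.60), bta-miR-30f (0.59) and bta-miR-15b (0.53) for bta-miR-125b, and bta-miR-660 (0.69), bta-miR-103 (0.64) and bta-miR-16b (0.62) for bta-miR-99a-5p. These values are descriptions over libraries that share cows, days and scaling.

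Ratios between members do not depend on how libraries are scaled. The ratio of bta-miR-99a-5p to bta-miR-99b fell from 8.63 for Cow 3 to 6.07 for Cow 4, 4.61 for Cow 1 and 3.81 for Cow 2 (geometric means, on the log2 scale 3.11 ± 0.24, 2.60 ± 0.55, 2.20 ± 0.66 and 1.93 ± 0.44). The lowest log2 ratio of Cow 3, 2.78, lay above the highest of Cow 2, 2.48. Over the 14 day means the F test among cows had an exact permutation p of 0.0418 (adjusted p = 0.0930 over 6 ratios). For bta-miR-125a to bta-miR-125b Cow 3 had the lowest ratio at 2.14, followed by Cow 4 at 2.83, Cow 1 at 3.42 and Cow 2 at 3.46 (exact permutation p = 0.0626, adjusted p = 0.0938).

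The ratio of the neighbours bta-miR-99b and bta-miR-125a was more even in its cow means than the miR-99 and miR-125 ratios above. bta-miR-99b was at 0.1003 of the level of bta-miR-125a for Cow 1, 0.103 for Cow 4, 0.107 for Cow 3 and 0.134 for Cow 2 (exact permutation p = 0.235). Single libraries ran from 0.067 to 0.201. The SD over libraries was 0.416 log2 units, beside 0.417 for the ratio of bta-miR-125a to bta-miR-125b. It was 0.646 for bta-miR-99a-5p to bta-miR-99b and 0.529 for bta-miR-99a-5p to bta-miR-125a. For bta-miR-99b to bta-miR-125b it was 0.525, and bta-miR-99a-5p to bta-miR-125b had the smallest at 0.279. The mean ratio of bta-miR-99a-5p to bta-miR-125b was between 1.58 in Cow 1 and 1.97 in Cow 3 (exact permutation p = 0.513). For bta-miR-99a-5p to bta-miR-125a Cow 3 had 0.919, Cow 4 had 0.628, Cow 2 had 0.512 and Cow 1 had 0.462 (exact permutation p = 0.0465, adjusted p = 0.0930). The lowest p was that of bta-miR-99b to bta-miR-125b (exact permutation p = 0.00863, adjusted p = 0.0518, just short of the threshold). In this ratio Cow 3 had 0.228, Cow 4 had 0.292, Cow 1 had 0.343 and Cow 2 had 0.464. Without each cow in turn the adjusted p was 0.0104 (Cow 1), 0.205 (Cow 2), 0.348 (Cow 3) and 0.0621 (Cow 4). Between sessions none of the 6 ratios differed beyond the spread of the pairs (exact sign permutation over 14 pairs, adjusted p from 0.720 to 0.865).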

How the data were processed

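The authors removed adapters, low-quality and short sequences and PCR duplicates, filtered unique sequences by CPM, matched these with miRBase entries of the cow and summed the isomiRs of each miRNA. The deposited values are log2 CPM that the authors made with edgeR, with effective library sizes. A genome build is not given in the sources used here. Reads were worked back with a prior count of 2, and 0 of 3696 values missed a whole number by more than 0.01. Because the unit is log2, limma 3.58.1 (R 4.3.3) with a variance trend was run on the deposited values of all 132 miRNAs, in place of a count test, with Benjamini-Hochberg adjustment and a threshold of 0.05. A read of 0 stands at 3.55 in every library.

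Sessions were fitted beside cow, cows alone (F test and 6 contrasts), log2 SCC beside cow, days beside cow and session, and the interaction of cow and session. Ratios were tested over all 4204200 assignments of the 14 day means to cows, in place of the 100000 random permutations used for correlations. Python 3.11.15, numpy 2.4.6, pandas 2.3.3, scipy 1.17.1 and matplotlib 3.10.9 did the rest. The fits and permutation tests were tested on simulated data.

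Morning and evening libraries of 1 cow and day come from the same animal, and the labels give this pairing. Their residuals correlated with a mean of 0.077 (14 pairs, -0.296 to 0.518), against -0.203 for 72 pairs of 1 cow and other days, so a fit with the pair as a replicate block is given where it changes a call. Labels call milkings separate samples, and p-values measure the spread between them.

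All 4 members are named with their values. Further names are the let-7 partners, the 3 miRNAs most like each member and, for marker lists, those that lead or are at 0. Members and lists were chosen with earlier results of these data known. Alternatives were other scalings, added constants, filters, covariates and leaving out days, cows or single libraries.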

Additional observations from a re-analysis of the deposited data

Results flagged for a closer look

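Within single cows, 48 groups of values were tested for a sample far from the others, over the levels of the 4 miRNAs, their 6 ratios and, for Cow 2 and Cow 4, the evening minus morning differences. Of these 2 had one, where chance gives about 1 in 20. In the evening of day 2 of Cow 4 bta-miR-125a was at 13.79 log2 CPM, while the other 7 libraries of that cow lay between 12.97 and 13.31. The gap took 0.583 of the range. In the same library the log2 ratio of bta-miR-125a to bta-miR-125b was 2.37, with a gap of 0.600 of the range of Cow 4. This library had 157829 reads over the 132 miRNAs and the lowest scaling factor of the 28 (0.696). Scaled to its own read total, bta-miR-125a was at 13.27 there, inside the 12.77 to 13.42 of the other libraries of Cow 4. The ratio is free of the scaling.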

How the results depend on the processing

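For the 5 differences of Cow 3 that were called, the direction was the same under every alternative. With morning or evening libraries only, 0 of the 4 members passed among cows (15 and 29 of the 132 miRNAs), as with the replicate block, without Cow 3 (32 miRNAs) and with the milkings of a day averaged (30 miRNAs). It was 1 of 4 with own read totals, without day 3 and without Cow 2, and 1 to 3 without single libraries. Among Cow 1, Cow 2 and Cow 4, 2 of 12 differences passed with library medians set equal, 1 with own read totals, and 0 to 1 without single libraries. For days within cows 0 members passed with own read totals, no variance trend, a depth covariate, or without day 3, Cow 1 or Cow 2, and 1 with quantile normalization. The count of all miRNAs was then 7 with quantile normalization, 27 with own totals, 0 with no trend and without Cow 1, 1 without day 3 and 4 without Cow 2. For days it was 2 with medians set equal, 1 with a mean log2 of at least 7 and 6 without Cow 4. For SCC it was 1 with quantile normalization, no trend and morning libraries, 6 with the filter and without Cow 4, 5 with a depth covariate and without Cow 3, 0 in the 6 other alternatives that moved it, among them the replicate block, and 0 to 6 without single libraries. The replicate block changed no call beside those given above.

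Session differences, none called, changed sign without Cow 1 for bta-miR-99a-5p (0.018) and bta-miR-99b (-0.032) and without Cow 4 for bta-miR-125a (-0.027). Without single libraries they ran from -0.013 to 0.130 for bta-miR-99b and from -0.022 to 0.083 for bta-miR-125a. For bta-miR-125b the difference of Cow 3 to Cow 1 was -0.083 in morning libraries, and that to Cow 4 was -0.0091 with quantile normalization, -0.005 with a depth covariate and from -0.037 to 0.11 without single libraries. The slope on SCC of bta-miR-99b was 0.0061 with medians set equal, 0.042 with quantile normalization, 0.0054 with a depth covariate, 0.016 with the replicate block, 0.23 without Cow 2 and 0.00050 in evening libraries, and -0.070 to 0.060 without single libraries. That of bta-miR-125a was -0.063 with quantile normalization, -0.032 with own totals, -0.20 without day 3, -0.087 without Cow 1, -0.011 in evening libraries and -0.022 without libraries above 200000 cells/mL, and -0.033 to 0.089 without single libraries. That of bta-miR-125b was 0.027 without Cow 2 and 0.034 in morning libraries.

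The correlation of bta-miR-99b and bta-miR-125a passed with quantile normalization (0.51), own totals (0.51) and without Cow 3 (0.60), and was lower without Cow 1 (0.26) and Cow 2 (0.31), with 0.35 to 0.55 without single libraries. That of bta-miR-99b and bta-miR-125b fell to 0.10 with quantile normalization. With own totals 3 further correlations rose and passed, those of bta-miR-125b with bta-miR-99a-5p (0.69), with bta-miR-125a (0.43) and with bta-miR-99b (0.58). That of bta-miR-99a-5p turned to 0.27 with bta-miR-99b and 0.16 with bta-miR-125a. Without Cow 4 the last 2 were 0.0087 and 0.074. Without single libraries bta-miR-99a-5p and bta-miR-125a ran from -0.22 to 0.021, and bta-miR-99b and bta-miR-125b from 0.37 to 0.52. The F of the ratio of bta-miR-99b to bta-miR-125b was 12.9 without Cow 1 and 2.44 without Cow 2. The causes of these shifts were not tested. Depth limits bta-miR-99b most, with 71 reads in its lowest library.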
